A study of Mus musculus with 25 samples.

Results

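MHC class I molecules and their supply of peptide were followed at the level of mRNA in thymocytes with and without the kinase WNK1. The 10 genes are the class I heavy chains H2-K1, H2-D1, H2-Q2, H2-Q4, H2-Q6, H2-Q7, H2-T22 and H2-T23, the light chain B2m, and Tap1, which encodes a subunit of the peptide transporter. They were chosen by name from the 48795 rows of the table of normalized counts. All 10 were among the 14141 genes whose mean over the 25 libraries was at least 10, the genes that were tested.

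RNA was sequenced from Thy1.2+ CD44- thymocytes of mice aged 7 to 8 weeks on a C57BL/6J background, a gate that holds DN3 and DN4 cells, 1 library per mouse. WNK1-deficient mice were Wnk1fl/fl Rag1-/- CD2-Cre and gave 13 libraries, control mice were Wnk1fl/+ Rag1-/- CD2-Cre and gave 12. Uninjected mice stand for 0 hr, and the others received 150 µg of anti-CD3ε into the peritoneum and were taken at 3, 24 or 48 hr, with 3 mice per genotype and time except 4 WNK1-deficient mice at 0 hr, all in 1 experiment. Both genotypes therefore lack RAG1 and carry Cre driven by the human CD2 promoter, and the controls keep 1 wild-type Wnk1 allele beside the floxed one, which Cre deletes in lymphoid cells. Without RAG1 no TCRβ chain is made and thymocytes stop at DN3, so anti-CD3ε stands in for the pre-TCR signal.

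A class I molecule is a heavy chain that binds B2M, is loaded in the endoplasmic reticulum with peptides that TAP1 and TAP2 pump in from the cytosol, and then shows the peptide on the cell surface to CD8+ T cells and NK cells. In C57BL/6 mice H2-K1 and H2-D1 encode the classical molecules Kb and Db, which every nucleated cell can carry. H2-Q and H2-T genes encode nonclassical molecules: H2-Q7 and its close relative H2-Q6 give Qa-2, which is held in the membrane by a glycolipid anchor, H2-T23 gives Qa-1, the ligand of the CD94/NKG2 receptors of NK cells, and H2-T22 is bound by a subset of γδ T cells. Double-positive thymocytes are known to carry little classical class I and mature thymocytes more. Class I genes are switched on through an NF-κB site, an interferon-stimulated response element (ISRE), and a module for the RFX complex, CREB-type factors and NF-Y, on which the transactivator NLRC5 sits.

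Promoter sequence is shown for 7 of the genes, picked by name, so that the letters of H2-Q2 can be set beside those of its relatives. All 7 hold an inverted CCAAT box. H2-T22 holds this box too and is not shown, nor are H2-T23 and Tap1, in which only the direct CCAAT was found. Each stretch runs from 100 bases before an inverted CCAAT box (ATTGG, the NF-Y site) to 25 bases after it, on the strand of the gene, and was taken from RefSeq on GRCm38.p6. Capitals mark GGGATTCCC (an NF-κB site), GAAANNGAA (a form of the core of an ISRE), TGACG (the core of a CREB-type site) and CCAAT. They were searched on both strands, with the 4 motifs nowhere overlapping. H2-Q2 lies at chr17:35342126-35342255 (+), H2-Q4 at chr17:35379438-35379567 (+), H2-Q6 at chr17:35424671-35424800 (+), H2-Q7 at chr17:35439015-35439144 (+), H2-K1 at chr17:34000334-34000463 (-), H2-D1 at chr17:35262918-35263047 (+) and B2m at chr2:122147534-122147663 (+).
H2-Q2: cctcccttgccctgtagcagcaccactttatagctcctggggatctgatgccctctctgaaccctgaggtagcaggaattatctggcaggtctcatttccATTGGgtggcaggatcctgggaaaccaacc
H2-Q4: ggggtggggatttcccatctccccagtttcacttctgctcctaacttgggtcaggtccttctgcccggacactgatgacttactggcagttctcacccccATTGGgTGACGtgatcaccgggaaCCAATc
H2-Q6: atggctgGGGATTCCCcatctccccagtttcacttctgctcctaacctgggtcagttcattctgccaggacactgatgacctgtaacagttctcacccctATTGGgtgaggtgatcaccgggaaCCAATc
H2-Q7: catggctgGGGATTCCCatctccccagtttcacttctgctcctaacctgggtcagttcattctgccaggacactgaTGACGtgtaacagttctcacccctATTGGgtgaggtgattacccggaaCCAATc
H2-K1: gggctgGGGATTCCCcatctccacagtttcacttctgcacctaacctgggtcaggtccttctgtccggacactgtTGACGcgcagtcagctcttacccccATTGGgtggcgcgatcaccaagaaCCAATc
H2-D1: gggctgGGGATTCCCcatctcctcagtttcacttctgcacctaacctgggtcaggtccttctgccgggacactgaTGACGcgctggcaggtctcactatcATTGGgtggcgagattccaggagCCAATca
B2m: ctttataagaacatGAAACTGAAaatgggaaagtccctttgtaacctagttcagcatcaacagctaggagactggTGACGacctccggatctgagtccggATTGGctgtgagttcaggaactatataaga

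Over the whole RefSeq promoter windows, 250 bases before to 50 after the start site, GGGATTCCC was found in H2-K1, H2-D1, H2-Q6 and H2-Q7, and in 0.353% of all 32851 windows. H2-Q2 held none of the motifs except the inverted CCAAT box, a box that either strand of 37.4% of all windows holds. GAAANNGAA was found in H2-T22, H2-T23 and B2m (8.56% of all windows), and TGACG in H2-K1, H2-D1, H2-Q4, H2-Q7, H2-T22, B2m and Tap1 (20.8%). A match is a stretch of letters, and a missing match says only that these letters are not in the window.

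Class I genes resemble each other, and the reads were single ends of 75 bases. Of the 75-base windows of each gene's protein-coding transcripts (GENCODE vM1), none of B2m or Tap1 occurred in another gene, against 1.22% for H2-K1, 3.41% for H2-Q4, 5.56% for H2-D1, 6.80% for H2-T23, 8.07% for H2-Q2, 13.3% for H2-Q6, 13.8% for H2-Q7 and 23% for H2-T22. H2-Q6 and H2-Q7 shared 197 windows with each other, so their separate values are less certain than their sum. H2-Q2 shared its windows mainly with a row that the older annotation also calls H2-Q2, whose mean over the libraries was 3.15 normalized counts, and none with another of the 10 genes. H2-T22 shared most with H2-T10, 17.8% of its windows. Class I genes also differ between mouse strains, and whether all mice carried the same alleles in this region was not tested, which bears on every H2-Q and H2-T value below.

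The libraries held 22.5 to 57.3 M reads (M, megareads). Wnk1 was lower in WNK1-deficient thymocytes at each time (log2 fold changes -0.83, -0.99, -0.95 and -1.05 at 0, 3, 24 and 48 hr, limma adjusted p from 0.00555 to 0.0104), with no overlap between the genotypes at any time, although a count over the whole gene can keep reads of exons outside the deleted stretch. Thymocyte markers (Thy1, Cd3e, Ptcra, Il2ra, Lck and 4 others) summed to at least 158202 normalized counts in every library. Their sum was lower without WNK1 with no overlap at 0 hr (299985 to 354474 in WNK1-deficient and 454938 to 510597 in control libraries), 24 hr (158202 to 196458 and 215781 to 273652) and 48 hr (232614 to 273050 and 280391 to 325320). Some single markers went the other way. Tcf7 averaged 65384 without WNK1 and 45008 in controls at 0 hr. At 48 hr Il2ra averaged 18479 and 10266, Ptcra 205 and 141, and Cd3e 21246 and 20837, WNK1-deficient and control in this order. All other averages of these markers were lower without WNK1 at 0, 24 and 48 hr. B cell markers (6 genes) summed to 392.4 to 1202 in WNK1-deficient libraries and 557 to 2613 in control libraries, and dendritic cell and macrophage markers (8 genes) to 258 to 1298 and 118 to 2469, with the B cell genes Ms4a1 and Pax5 at 0 in all libraries of both genotypes at 24 hr. B cell sums were lower without WNK1 with no overlap at every time, 823 to 1202 in WNK1-deficient and 2235 to 2613 in control libraries at 0 hr, 392.4 to 429 and 557 to 875 at 3 hr, 556 to 600.3 and 992 to 1494 at 24 hr and 454 to 810 and 1260 to 2118 at 48 hr. Dendritic cell and macrophage sums were apart at 0 hr only (621 to 1298 and 1942 to 2469), and thymic epithelium markers (6 genes) at 3 hr only, where they were higher without WNK1 (4066 to 4680 and 3334 to 3778). Double-positive markers were apart at 48 hr only (156 to 381 and 677 to 2043). NK and innate lymphoid markers (5 genes) were apart at 24 hr only, with 9699 to 10872 in WNK1-deficient and 2997 to 7339 in control libraries, and the part of these markers in the differences below was not tested. Xist and Y-linked counts placed the mice of 0 and 48 hr as female and those of 3 and 24 hr as male, so sex and time cannot be told apart in comparisons of 3 or 24 hr with 0 hr. At 0 hr all WNK1-deficient libraries carry lane 2 in their names and all control libraries lane 1, and there lane and genotype cannot be told apart. 5 libraries matter below. Control replicate 3 at 3 hr had 25582.5 normalized counts over 3 double-positive markers (Cd4, Cd8a, Cd8b1), against 221 and 858 in the other controls of that time. Control replicate 3 at 24 hr was the lowest of all 25 libraries for H2-K1, H2-D1, H2-Q4, H2-T23 and B2m, and control replicate 1 at 3 hr for the other 5 genes. Control replicate 3 at 48 hr was the highest control for 9 of the 10 genes, H2-Q2 excepted, and WNK1-deficient replicate 3 at 48 hr was the only library of its time from lane 3.

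Comparing the genotypes at each time asks how class I mRNA differs without WNK1 before and after the pre-TCR signal. The H2-Q genes were higher without WNK1, H2-Q6 with a log2 fold change of 2.28 before stimulation and 2.39 at 24 hr, while H2-K1 and H2-D1 were called higher only at 24 hr and the H2-T genes and B2m at no time. H2-Q2 was higher without WNK1 at 0 and 3 hr and lower at 24 hr. At 48 hr no gene of the 10 passed. The test was limma on log2(value + 1) over all genes, with an adjusted p of 0.05 as the threshold, and all fold changes are on that scale, WNK1-deficient over control.

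**Figure D1:**
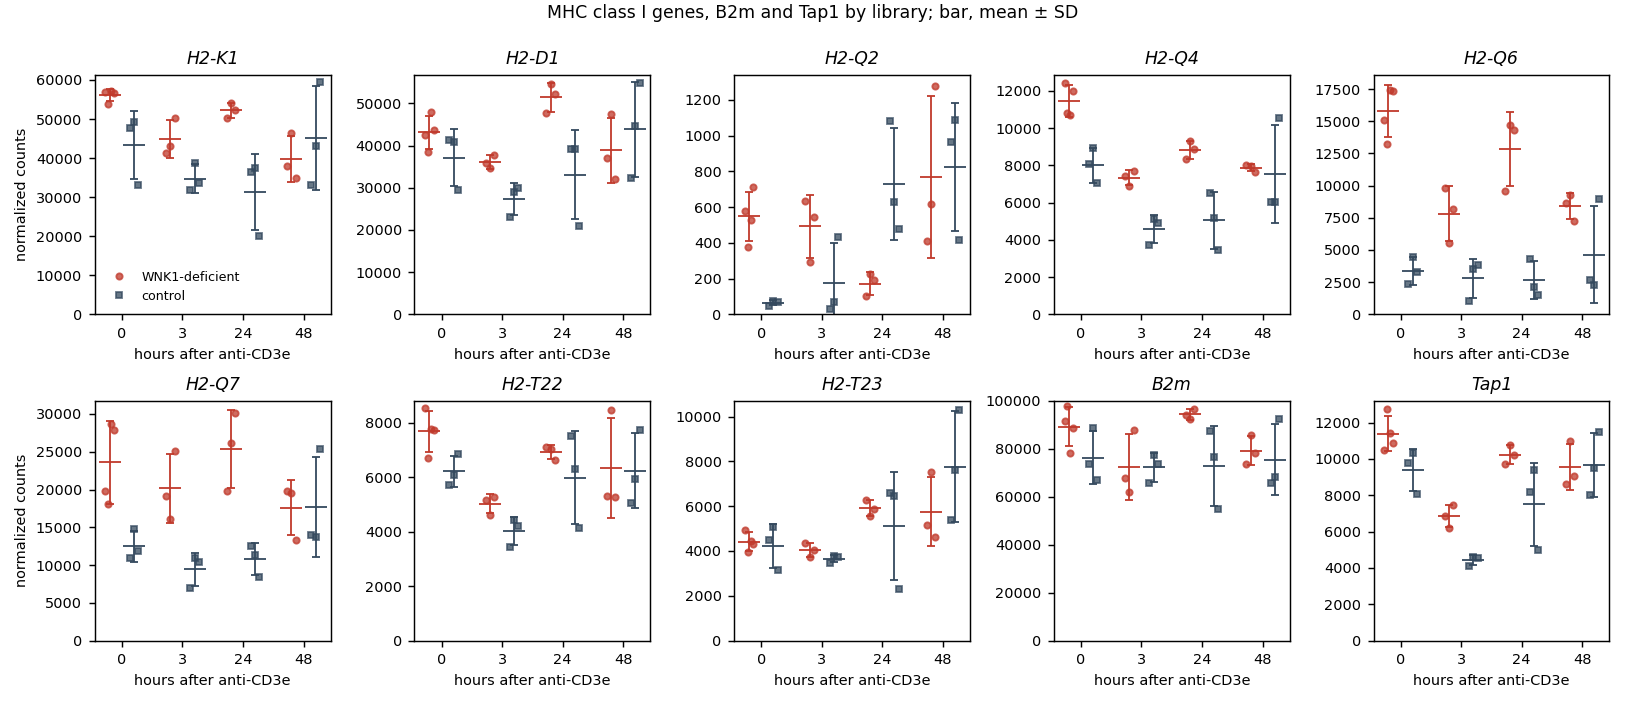
Normalized counts of each of the 10 genes by library (y axis, from 0, a scale per gene) against hours after anti-CD3ε (x axis), WNK1-deficient as red circles to the left of control as dark blue squares, with the mean and SD of 3 or 4 mice. H2-Q6 lies apart between the genotypes at 0, 3 and 24 hr, and H2-Q2 changes sides, with 100 to 225 in WNK1-deficient and 477 to 1084 in control libraries at 24 hr.

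At 0 hr, 4 of the 10 genes were called higher and none lower, against 11% of all genes tested called higher and 11.1% called lower. Their median log2 fold change was 0.35, against -0.00 over all genes. Every WNK1-deficient library lay above every control library for 6 of the 10 (H2-K1, H2-Q2, H2-Q4, H2-Q6, H2-Q7 and Tap1), as it did for 19.4% of all genes. At 3 hr 5 were called higher and none lower, against 5.75% and 3.43% of all genes, with a median of 0.52 against -0.02. The libraries were apart in this direction for 7 genes at that time (H2-K1, H2-D1, H2-Q4, H2-Q6, H2-Q7, H2-T22 and Tap1) and for 14% of all. At 24 hr 5 were called higher and 1 lower, against 7.03% and 5.45%, with a median of 0.60 against 0.00. WNK1-deficient libraries were all above at that time for 7 genes (H2-K1, H2-D1, H2-Q4, H2-Q6, H2-Q7, B2m and Tap1), against 17% of all genes, and all below for H2-Q2, against 16.9%. At 48 hr none was called, against 6.13% of all genes higher and 6.95% lower, none was apart in the upward direction, against 11.5% of all genes, and the median was 0.00. An unadjusted p under 0.05 was found for 1 of the 10 at 48 hr, H2-Q6, against 27.7% of all genes, and neither edgeR nor DESeq2 on recovered reads called any.

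**Figure D2:**
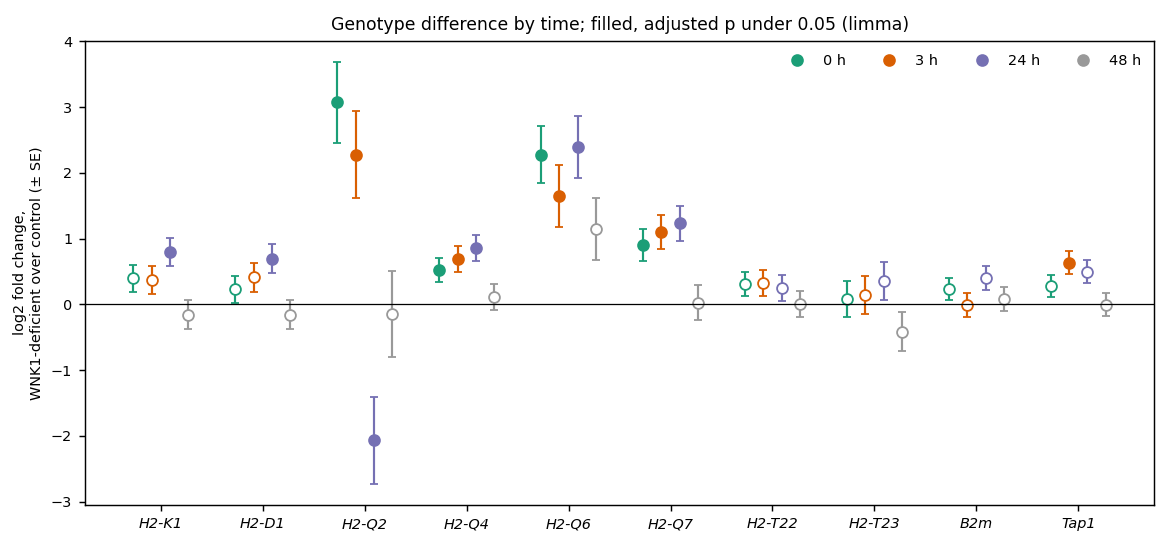
Log2 fold change of each gene, WNK1-deficient over control, with its standard error from limma, at 0, 3, 24 and 48 hr (colours). Filled points passed an adjusted p of 0.05: H2-Q6 at 0, 3 and 24 hr with 2.28, 1.66 and 2.39, and H2-Q2 on both sides of 0 with 3.08, 2.28 and -2.07.

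Among the heavy chains both Qa-2 genes were called higher at 0, 3 and 24 hr. H2-Q6 had 15102, 13264, 17442 and 17339 normalized counts in WNK1-deficient libraries at 0 hr, against 2313, 4476 and 3255 in control libraries. The values of 3 hr were 9803, 5535 and 8146 without WNK1, against 1064, 3479 and 3820 in controls. At 24 hr the values were 9569, 14731 and 14325 in WNK1-deficient libraries and 4300, 2126 and 1530 in controls. The groups did not overlap at any of these times, and the gap was widest at 0 hr. The log2 fold changes were 2.28 ± 0.44 (SE), 1.66 ± 0.47 and 2.39 ± 0.47, with limma adjusted p of 0.000979, 0.0296 and 0.00200. Calls at 0 and 24 hr stood with any library left out, with log2 fold changes from 2.04 to 2.52 and from 2.06 to 2.81. The call at 3 hr was lost without WNK1-deficient replicate 1 (limma adjusted p = 0.124), WNK1-deficient replicate 3 (0.0817) or control replicate 1 (0.156). It was also lost in edgeR (adjusted p = 0.0522). Within lane 4 at that time H2-Q6 differed by 1.00, 3 WNK1-deficient libraries against control replicate 3, the control with double-positive markers.

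At 48 hr H2-Q6 had 8678, 9265 and 7279 normalized counts without WNK1, against 2674, 2278 and 8961 in controls. Both other controls lay well under every WNK1-deficient library, and replicate 3 among them. The log2 fold change was 1.14 ± 0.47 (limma adjusted p = 0.115), and without control replicate 3 it was 1.76 ± 0.44 (0.0192). H2-Q6 is thus the only gene of the 10 that passed at 48 hr when that library was left out.

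H2-Q7 had 19824, 18020, 28617 and 27847 normalized counts in WNK1-deficient libraries at 0 hr, against 10874, 14777 and 11801 in control libraries. The libraries of 3 hr had 19168, 16066 and 25165 without WNK1 and 6897, 10941 and 10420 in controls. At 24 hr it had 19857, 26124 and 30143 without WNK1, against 12504, 11365 and 8472 in controls. Again no values overlapped, although the 4 WNK1-deficient mice at 0 hr fell into 2 lower and 2 higher values. The log2 fold changes were 0.90 ± 0.25, 1.10 ± 0.26 and 1.23 ± 0.26 (limma adjusted p = 0.0120, 0.0101 and 0.00389). The call at 24 hr stood with any library left out, that at 0 hr was lost without control replicate 1 (adjusted p = 0.0677), and that at 3 hr without WNK1-deficient replicate 3 (0.0596). At 48 hr the values overlapped, with 19823, 19542 and 13351 without WNK1 and 13953, 13777 and 25386 in controls.

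H2-Q4 encodes a further nonclassical heavy chain, known as Qb-1. It had 12434, 10791, 10706 and 11981 normalized counts in WNK1-deficient libraries and 8051, 8927 and 7054 in control libraries at 0 hr. At 3 hr the values were 7429, 6916 and 7682 without WNK1, against 3703, 5113 and 4916 in controls, and at 24 hr 8338, 9306 and 8892, against 6527, 5185 and 3464. WNK1-deficient libraries lay close together and above all controls at each of these times. The log2 fold changes were 0.52 ± 0.19, 0.69 ± 0.20 and 0.85 ± 0.20 (limma adjusted p = 0.0489, 0.0313 and 0.00744). At 0 hr the call lay so near the threshold that leaving out any of the 7 libraries ended it (adjusted p from 0.0567 to 0.155), and edgeR did not call it (0.0552). At 3 hr it was lost without any library except control replicate 2 (0.0509 to 0.124), and at 24 hr without control replicate 3 (0.0545, log2 fold change 0.60). At 48 hr H2-Q4 averaged 7882 ± 206 without WNK1 and 7532 ± 2613 in controls (SD, n = 3 each).

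H2-Q2 ran differently. At 0 hr it had 580, 375, 527 and 711 normalized counts in WNK1-deficient libraries, against 48.0, 76.0 and 66.6 in control libraries. In the libraries of 3 hr it had 637, 294 and 545 without WNK1 and 28.5, 69.2 and 435 in controls, the last of these being the control library with double-positive markers. At 24 hr the order was turned, with 100, 225 and 191 in WNK1-deficient libraries and 1084, 627 and 477 in controls. At 48 hr the values overlapped, 408, 617 and 1276 without WNK1 and 967, 1087 and 415 in controls.

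The log2 fold change of H2-Q2 was 3.08 ± 0.61 at 0 hr (limma adjusted p = 0.00132), 2.28 ± 0.66 at 3 hr (0.0321) and -2.07 ± 0.66 at 24 hr (0.0425). Control thymocytes had more H2-Q2 at 24 than at 0 hr (3.44 ± 0.66, adjusted p = 0.000392) and at 48 than at 0 hr (3.58 ± 0.66, 0.000162), while WNK1-deficient thymocytes had less at 24 hr than at 0 hr (-1.71 ± 0.61, 0.0395). The difference between these responses, the genotype by time interaction of 24 against 0 hr, was -5.15 ± 0.90 (adjusted p = 0.00789), and it passed with any of the 13 libraries left out (0.00797 to 0.0366). Between 24 and 3 hr, times that share lanes and sex, the interaction was -4.35 ± 0.93 (0.0456), a call lost without any WNK1-deficient replicate of either time, without control replicate 2 of 3 hr or without control replicates 1 or 2 of 24 hr (0.0725 to 0.144). The fall without WNK1 at 24 hr was lost without any library except WNK1-deficient replicate 2 of 0 hr (0.0534 to 0.172). The call at 0 hr stood with any library left out (0.00231 to 0.0109). The call of H2-Q2 at 24 hr was lost with any of the 6 libraries left out, with log2 fold changes that stayed between -2.33 and -1.72 and adjusted p from 0.0556 to 0.169. At 3 hr it was lost without WNK1-deficient replicate 1 (0.126) or 3 (0.0915) or control replicate 1 (0.168) or 2 (0.108), and without control replicate 3 it was 3.37 ± 0.52 (0.000622). Within lane 4 at 3 hr H2-Q2 differed by 0.11, 3 libraries against control replicate 3, the control with double-positive markers. At 24 hr it differed by -1.66 within lane 3, where control replicate 3 was the only control, and by -2.10 within lane 4. With lane as a covariate it passed at none of 0, 3 and 24 hr (1.78, 1.30 and -1.58, adjusted p = 0.251, 0.206 and 0.05004) and in neither interaction (-3.36 and -2.88, 0.420 and 0.115).

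In each interaction the other 9 genes did not pass, and 0.0707%, 0.658% and 1.36% of all genes did at 3, 24 and 48 against 0 hr, and 0.283% at 24 against 3 hr. H2-Q2 was the 1 of 10 called at 24 against 0 hr and at 24 against 3 hr. At 48 against 0 hr its value was -3.22 ± 0.90 (limma adjusted p = 0.0821). It passed there in DESeq2 (-3.21, 0.0275), with only the groups compared (-3.22, 0.0155) and without control replicate 3 of 3 hr, control replicate 3 of 24 hr and WNK1-deficient replicate 3 of 48 hr (-3.67, 0.00287).

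The classical molecules differed less. H2-K1 had 50337, 54153 and 52300 normalized counts in WNK1-deficient libraries at 24 hr, against 36412, 37488 and 20061 in controls. H2-D1 had 47726, 54550 and 52136 without WNK1, against 39129, 39217 and 20935 in controls. For both genes control replicate 3 lay far under the other controls, which themselves lay under every WNK1-deficient library. The log2 fold changes were 0.79 ± 0.22 for H2-K1 and 0.69 ± 0.22 for H2-D1 (limma adjusted p = 0.0203 and 0.0430). Without control replicate 3 they were 0.50 ± 0.20 and 0.39 ± 0.20 (adjusted p = 0.132 and 0.250). Both calls were also lost without any WNK1-deficient replicate (0.0510 to 0.0731 for H2-K1 and 0.0794 to 0.135 for H2-D1). Within lane 4 at 24 hr, 1 WNK1-deficient against 2 control libraries, H2-K1 differed by 0.50 and H2-D1 by 0.41 on the log2 scale. Within lane 3 the differences were 1.38 and 1.29, 2 WNK1-deficient libraries against control replicate 3 alone.

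At 0 hr H2-K1 had 56817, 53802, 57145 and 56787 normalized counts without WNK1 and 47607, 49154 and 33207 in controls, apart but not called (0.40 ± 0.20, limma adjusted p = 0.167). H2-D1 averaged 43151 ± 3844 (SD, n = 4) without WNK1 and 37174 ± 6765 (SD, n = 3) in controls at that time, with overlapping values. At 3 hr H2-K1 averaged 44855 ± 4858 and 34752 ± 3617 and H2-D1 36155 ± 1596 and 27379 ± 3723 (SD, n = 3 each), WNK1-deficient and control in this order, with no overlap and no call (0.37 and 0.41). At 48 hr both averages were lower without WNK1, 39713 ± 5948 against 45198 ± 13256 for H2-K1 and 38864 ± 7777 against 43885 ± 11271 for H2-D1, far inside the spread of the controls.

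H2-T22 and H2-T23 were not called between the genotypes at any time. H2-T22 ranged from 4629 to 8555 normalized counts over the WNK1-deficient libraries and from 3455 to 7752 over the control libraries, with log2 fold changes from 0.01 to 0.32. H2-T23 had log2 fold changes from -0.41 at 48 hr to 0.36 at 24 hr, and the value of 24 hr was -0.14 without control replicate 3, in which H2-T23 was 2309 against 6451 and 6567 in the other controls. Reads of H2-T22 and H2-T10 can be exchanged by the counting. H2-T10 differed widely between mice of the same group, with 1131, 826, 6150 and 5790 in WNK1-deficient libraries and 907, 915 and 8012 in control libraries at 0 hr.

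B2m had 91485, 97884, 78346 and 88837 normalized counts in WNK1-deficient libraries and 73667, 88626 and 66812 in control libraries at 0 hr. At 3 hr it had 67750, 61860 and 87955 without WNK1, against 65784, 77543 and 73535 in controls. At 24 hr the values were 93957, 92471 and 96807 without WNK1 and 87427, 76489 and 54819 in controls, and at 48 hr 73530, 85641 and 78473, against 65649, 68357 and 92517. Only at 24 hr did the groups lie apart, and B2m was not called there (0.40 ± 0.18, limma adjusted p = 0.155) or at any other time. Without control replicate 3 the difference of 24 hr was 0.21 ± 0.18.

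Tap1 was called higher without WNK1 at 3 hr only. It had 6883, 6223 and 7479 normalized counts in WNK1-deficient libraries, against 4098, 4585 and 4564 in controls, with no overlap (0.63 ± 0.18, limma adjusted p = 0.0266). At 0 hr it had 10512, 12769, 11426 and 10890 without WNK1 and 9769, 10342 and 8093 in controls (0.28 ± 0.17, adjusted p = 0.229). At 24 hr it had 9746, 10791 and 10198 without WNK1, against 8160, 9367 and 4967 in controls (0.50 ± 0.18, 0.0692), a difference called without control replicate 2 (0.69, 0.0157) and with lane as a covariate (0.60, 0.0204) and smaller without control replicate 3 (0.23 ± 0.15, 0.388). At 48 hr the groups overlapped, with 8643, 11007 and 9044 without WNK1 and 8010, 9500 and 11496 in controls. The call at 3 hr was lost without WNK1-deficient replicate 1 (adjusted p = 0.0818) or 3 (0.0959) or any control replicate (0.0529 to 0.0741). It was also lost with lane as a covariate (log2 fold change 0.44, limma adjusted p = 0.173). Within lane 4 at 3 hr Tap1 differed by 0.58 on the log2 scale, 3 WNK1-deficient libraries against control replicate 3, the control with double-positive markers.

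Because the counting can move reads between close relatives, the heavy chains were also summed before the test. H2-Q2, H2-Q4, H2-Q6 and H2-Q7 together had 51390 ± 7500 normalized counts without WNK1 (SD, n = 4) and 23906 ± 3793 in controls (SD, n = 3) at 0 hr. The sum was 35795 ± 6453 without WNK1 against 16961 ± 4563 in controls at 3 hr (SD, n = 3 each). After 24 hr it was 47267 ± 8296 without WNK1 and 19220 ± 5236 in controls, and after 48 hr 34628 ± 4404 without WNK1 and 30697 ± 12657 in controls (SD, n = 3 each). The log2 fold changes of this sum were 1.10 ± 0.24, 1.10 ± 0.26, 1.32 ± 0.26 and 0.24 ± 0.26 (limma adjusted p = 0.00273, 0.00903, 0.00193 and 0.591). The first 3 passed with any library left out (adjusted p from 0.00195 to 0.0493), and the value of 48 hr was 0.56 ± 0.25 without control replicate 3 (0.170). H2-K1 and H2-D1 together passed at 24 hr only (0.74 ± 0.22, adjusted p = 0.0321, lost without control replicate 3, 0.45 with 0.194, or any WNK1-deficient replicate, 0.0695 to 0.107), H2-T22 and H2-T23 together at no time, and all 8 heavy chains together at 24 hr (0.84 ± 0.23, 0.0195, lost without control replicate 3, 0.55 with 0.126, or WNK1-deficient replicates 2 or 3, 0.0739 and 0.0637). With lane as a covariate the log2 fold changes at 0 hr were 4.14 for H2-Q6, 1.77 for H2-Q7 and 1.33 for H2-Q4. In that fit lanes 1 and 2, which hold the control and WNK1-deficient libraries of 0 hr, share only the controls of 48 hr. Of these, replicate 3 is in lane 1 and replicates 1 and 2 are in lane 2. Each lane-adjusted value of 0 hr thus carries the distance of control replicate 3 at 48 hr from replicates 1 and 2. Only 1 library links the lanes of 0 and 48 hr to the others. In bulk RNA fewer cells with a gene on and less RNA per cell cannot be told apart.

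The share of each kind of heavy chain was compared as well, and no difference passed after adjustment. H2-Q genes held 31.4 ± 2.30% of the normalized counts of the 8 heavy-chain genes in WNK1-deficient libraries at 0 hr (SD, n = 4) and 21 ± 2.96% in controls (SD, n = 3), and 28.3 ± 2.80% without WNK1 and 19.3 ± 2.97% in controls at 3 hr (SD, n = 3 each). The shares after 24 hr were 28.7 ± 3.08% without WNK1 and 20.6 ± 2.57% in controls, and after 48 hr 27.8 ± 2.38% without WNK1 and 22.6 ± 3.56% in controls (SD, n = 3 each). These shares are not corrected for transcript length. They did not overlap at 0, 3 and 24 hr, the exact two-sided permutation p being 0.0571 at 0 hr and 0.1 at 3 and 24 hr, in each case the smallest that the numbers of mice allow, and 0.2 at 48 hr (0.133, 0.133, 0.133 and 0.2 after Benjamini-Hochberg adjustment over the 4 times). H2-Q6 made up 40.5 ± 2.74% of H2-Q6 and H2-Q7 together without WNK1 and 20.8 ± 2.94% in controls at 0 hr, and 33.6 ± 2.14% without WNK1 and 18.9 ± 5.81% in controls at 24 hr, with no overlap. After 48 hr its share was 32.6 ± 2.45% without WNK1 and 18.8 ± 6.39% in controls, also with no overlap, while the 28 ± 5.11% without WNK1 and 21.4 ± 7.12% in controls of 3 hr overlapped. The share of H2-D1 in H2-K1 and H2-D1 together lay between 41.8 and 50.6% without WNK1 and between 42.1 and 51.8% in controls, and was apart only at 24 hr (49.6 ± 0.81% and 51.3 ± 0.41%).

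**Figure D3:**
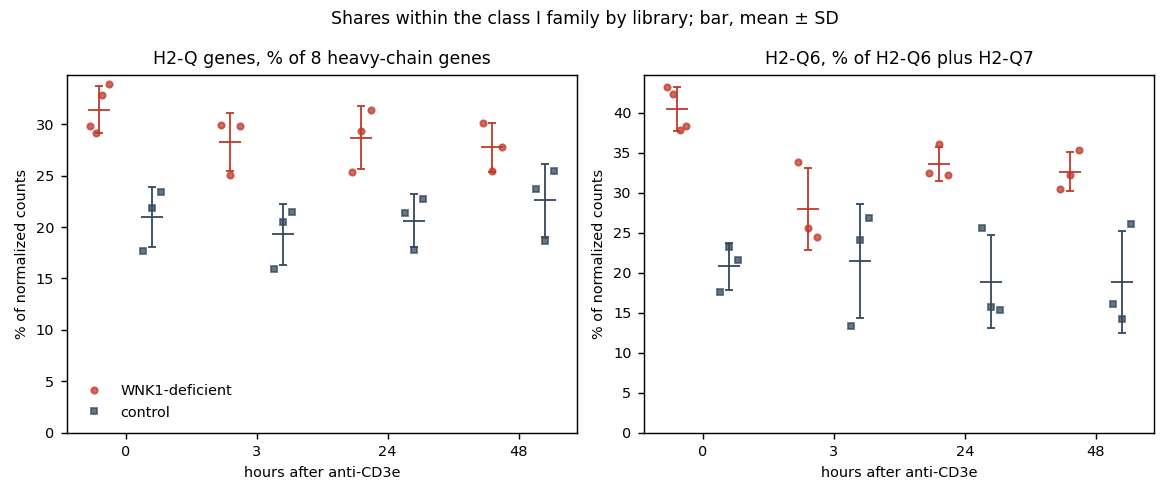
Share of the H2-Q genes in the normalized counts of the 8 heavy-chain genes (left) and of H2-Q6 in H2-Q6 plus H2-Q7 (right), in percent, by library and hours after anti-CD3ε, WNK1-deficient as red circles to the left of control as dark blue squares, with mean and SD. H2-Q shares were 29.2 to 34.0% in WNK1-deficient and 17.7 to 23.4% in control libraries at 0 hr.

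Comparing each time with 0 hr asks how class I mRNA moved after the pre-TCR signal in each genotype. At 3 hr 3 of the 10 genes fell in each genotype, H2-Q4, H2-T22 and Tap1, against 24.7% of all genes that changed in either direction in WNK1-deficient thymocytes and 37.0% in controls. Tap1 fell by 0.73 on the log2 scale without WNK1 and by 1.08 in controls (limma adjusted p = 0.00315 and 9.33e-05), H2-Q4 by 0.64 and 0.81 (0.0158 and 0.00324) and H2-T22 by 0.61 and 0.63 (0.0197 and 0.0168). The fall of Tap1 stood with any library left out in both genotypes and that of H2-Q4 in controls. Without WNK1 H2-Q4 lost its call without replicate 2 of 3 hr (0.0638), and H2-T22 without that library (0.0822) or replicate 1 of 0 hr (0.0544), and in controls H2-T22 without replicate 3 of 0 hr (0.0603) or replicate 1 of 3 hr (0.0678). Tap1 was higher again at 24 than at 3 hr, by 0.58 without WNK1 and by 0.72 in controls (0.0136 and 0.00284). Here 1 of the 10 changed without WNK1 and 3 in controls (Tap1, H2-Q2 and H2-T22), against 37.1% and 43.6% of all genes. Tap1 lost this call without WNK1-deficient replicate 2 of 3 hr (0.0621), and H2-T22 (0.53 in controls) without control replicate 1 of 3 hr (0.125) or control replicates 1 or 2 of 24 hr (0.195 and 0.101).

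At 24 against 0 hr 1 gene was called without WNK1 (H2-Q2, lower) and 2 in controls (H2-Q2 higher and H2-Q4 lower by 0.70, limma adjusted p = 0.00947, and by 0.45 with 0.0704 without control replicate 3), against 30.4% and 33.9% of all genes. At 48 against 0 hr 1 was called without WNK1 (H2-Q4, lower by 0.54, limma adjusted p = 0.0361, lost without any library except replicate 3 of 0 hr, 0.05001 to 0.0937) and 2 in controls (H2-Q2, and H2-T23 higher by 0.86 ± 0.29, 0.0226), against 26.8% and 42.4%. H2-T23 averaged 5759 ± 1554 normalized counts without WNK1 and 7768 ± 2467 in controls at 48 hr (SD, n = 3 each), against 4413 ± 417 (SD, n = 4) and 4224 ± 993 (SD, n = 3) at 0 hr. Without control replicate 3 of 48 hr its rise in controls was 0.63 and no longer called (adjusted p = 0.134), nor was it without control replicate 3 of 0 hr (0.111). H2-K1, H2-D1, H2-Q6, H2-Q7 and B2m were called in none of these 8 comparisons over time. No interaction was called for any of the genes that changed in 1 genotype except H2-Q2, so their responses were not shown to differ between the genotypes.

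Over the 25 libraries H2-Q2 also varied apart from the rest. Its Pearson r with the other 9 genes on log2(value + 1) lay between 0.00 (H2-K1) and 0.31 (H2-Q7), against 0.91 between H2-Q6 and H2-Q7, 0.88 between H2-K1 and H2-Q4, and 0.87 between H2-K1 and H2-D1. These values describe libraries that share groups, lanes and scaling. Among tested genes outside the 10 the most like H2-Q2 were Cdc20b (0.78), Sit1 (0.78), Pik3r2 (0.77), Plxnb1 (0.75) and Dusp10 (0.74). The most like H2-K1 were Kctd21 (0.80), St7l (0.80), Lemd2 (0.77), C3 (0.76) and Tgfbi (0.76), and the most like Tap1 were Zfyve1 (0.93), Tmem43 (0.93), Zbtb3 (0.92), Coq8a (0.90) and Gm11131 (0.90).

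Other genes of the pathway were fitted in the same way and not refitted without single libraries. Of 7 peptide-loading genes (Tap2, Tapbp, Tapbpl, Calr, Canx, Pdia3 and Erap1) none was called between the genotypes at any time, with medians of 0.28, -0.19, 0.28 and -0.03 at 0, 3, 24 and 48 hr. Of 4 tested genes of the immunoproteasome and its activator, which cut proteins into peptides that fit class I, 3, 1, 2 and 1 were called lower and none higher, with medians of -0.44, -0.22, -0.41 and -0.38. Medians of all genes lay between -0.02 and 0.00. Of all genes tested, 11%, 5.75%, 7.03% and 6.13% were called higher at 0, 3, 24 and 48 hr. The shares called lower were 11.1%, 3.43%, 5.45% and 6.95%. Psmb8, a catalytic subunit of the immunoproteasome, was lower without WNK1 at every time, with 14626 ± 671 (SD, n = 4) against 21905 ± 3881 normalized counts in controls (SD, n = 3) at 0 hr, and 11819 ± 345 against 17269 ± 2428 at 24 hr (SD, n = 3 each). Its log2 fold changes were -0.57, -0.52, -0.54 and -0.47, each ± 0.14 or 0.15 (limma adjusted p = 0.00606, 0.0313, 0.0215 and 0.0406). Psme2, a subunit of the proteasome activator, was lower without WNK1 than in controls by 0.44 at 0 hr and by 0.47 at 24 hr (limma adjusted p = 0.0306 and 0.0437).

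Of 9 genes that act in class I transcription, 0, 1, 2 and 0 were called higher and 1, 0, 0 and 1 lower at the 4 times, with medians of 0.15, 0.03, 0.16 and -0.12. The shares of all genes are those given above, and 1 lower gene of 9 at 0 hr is near the 11.1% of all genes. Nlrc5, the class I transactivator, had 4413, 5089 and 4877 normalized counts without WNK1 and 3453, 3052 and 1758 in controls at 24 hr (0.85 ± 0.28, limma adjusted p = 0.0488) and was not called at 0, 3 or 48 hr (0.32, -0.03 and -0.16). Irf1, an interferon-induced activator that binds ISREs, averaged 4900 ± 510 and 3005 ± 292 at 3 hr (SD, n = 3 each), WNK1-deficient and control, and was called there only (0.70 ± 0.15, 0.00465). Rfxank, a subunit of the RFX complex, was lower without WNK1 at 0 and 48 hr (-0.75 and -0.55, adjusted p = 0.00164 and 0.0321).

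Of 13 tested other class I and class I-like genes, 1, 0, 2 and 0 were called higher and 0, 0, 1 and 2 lower, with medians of 0.04, 0.51, 0.00 and -0.39. Called higher at 0 hr, 1 of 13 is under the 11% of all genes, and the shares of the other times are given above. H2-Q5, the neighbour of the Qa-2 genes, was higher without WNK1 at 0 and 24 hr, with 1061 ± 53.2 (SD, n = 4) against 263 ± 91.3 in controls (SD, n = 3) and 1177 ± 120 against 294 ± 138 (SD, n = 3 each), log2 fold changes of 2.07 ± 0.47 and 2.11 ± 0.50 (limma adjusted p = 0.00362 and 0.00868). At 48 hr it had 1159, 715 and 636 normalized counts without WNK1 and 361, 253 and 1279 in controls, replicate 3 again lying high. Of 15 interferon receptors and interferon-induced genes none was called higher, and 1, 0, 3 and 2 were called lower, with medians of 0.06, 0.33, -0.94 and -0.63. The shares of all genes called lower were 11.1%, 3.43%, 5.45% and 6.95%, so 1 of 15 at 0 hr is under that share. Ifngr2, a chain of the interferon-γ receptor, was lower at 24 and 48 hr (-0.61 and -0.63, 0.0478 and 0.0388), and Stat2, which acts in type I interferon signalling, at 0 and 48 hr (-0.51 and -0.60, 0.0309 and 0.0288).

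**Figure D4:**
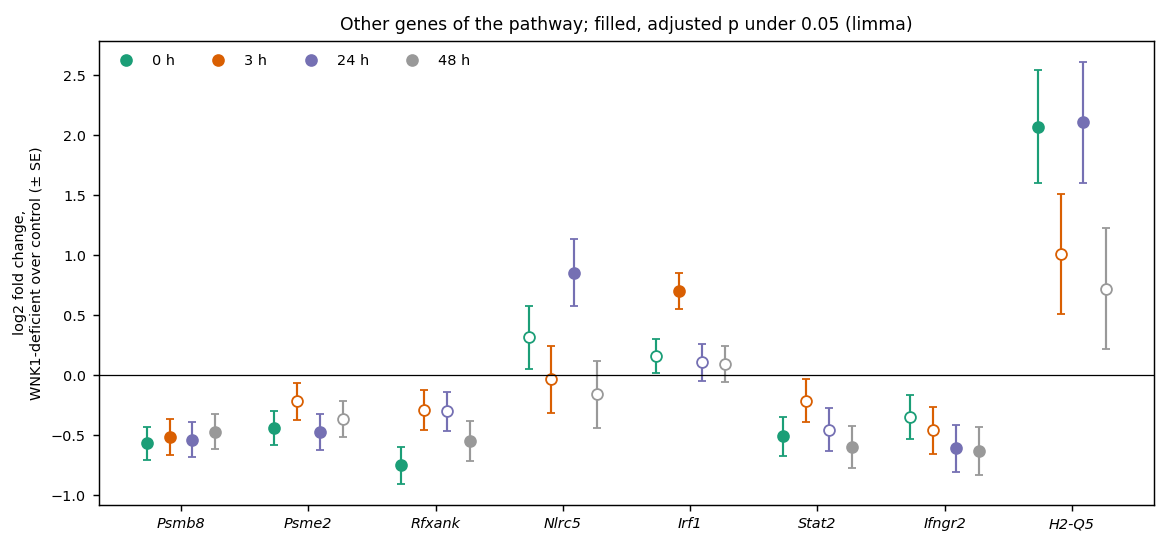
Log2 fold change, WNK1-deficient over control, with its standard error, of genes of the class I pathway outside the 10, at 0, 3, 24 and 48 hr (colours), filled where the limma adjusted p was under 0.05. Psmb8 lies between -0.57 and -0.47 at all times, whereas H2-Q5 lies at 2.07 and 2.11 at 0 and 24 hr.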

How the data were processed

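The members and gene lists were chosen with earlier results of these data known. Poly(A)-selected, stranded libraries were sequenced as single reads of 75 bases. The authors trimmed reads with Trimmomatic 0.36, aligned them to GRCm38 (Ensembl release 86) with STAR 2.5.2a, counted genes with RSEM 1.2.31 and, per the labels, scaled and tested with DESeq2 1.18.1 in R 3.4.1. The deposited signal is a normalized count, the gene count divided by a size factor of the library. RSEM shares reads that match several genes between them, which can move counts among class I paralogs.

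Genes with a mean of at least 10 (14141 of 48795 rows, 27571 above 0) entered the fit, made with limma 3.58.1 under R 4.3.3 (trend, empirical Bayes), each of the 8 groups having its own mean, after taking log2(value + 1). The Benjamini-Hochberg adjusted p was taken within each comparison at 0.05. Dividing by the smallest step returned whole reads within 0.001 in all 25 libraries. In 2 of them the step lies within 1.5% of 1, so the check on scale was met by 23. The reads gave the depth (22.5 to 57.3 M, median 36.6 M) and served as input to the quasi-likelihood test of edgeR 4.0.16 and to DESeq2 1.42.0, the alternatives on counts. Group means rest on 3 or 4 mice, and the fits were tested on simulated data. Other alternatives were pseudocounts of 0.5 and 5, no filter, a mean of at least 100, quantile, upper-quartile and total scaling, no trend, only the groups compared, replicate block, lane, each replicate left out, and, added after seeing the data, the omission of 3 libraries. Shares were compared by exact permutation tests.

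All 10 genes are named, with values by library where a genotype comparison or interaction passed and for B2m and Tap1. Of each pathway list, genes called at 2 or more times are named, and Nlrc5 and Irf1; 1 gene of each of 2 lists is not reported here. H2-T10 was named after its values were seen. Likeness gives the 5 highest Pearson r. Symbols and promoters came from RefSeq, 12973 of the tested identifiers having a symbol. H2-Q2 and H2-Q5 were matched by the Ensembl identifier that the study's supplement pairs with them (an older annotation gives H2-Q2 to a second identifier, left unnamed here), and Psmb9 and the erythroid markers Hbb-bs and Hbb-bt were not matched.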

Additional observations from a re-analysis of the deposited data

Results flagged for a closer look

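H2-Q2 had a different response to anti-CD3ε in the genotypes by a test of the difference itself, a call that depends on the fit. The genotype by time interaction was -5.15 on the log2 scale for 24 against 0 hr and -4.35 for 24 against 3 hr (limma adjusted p = 0.00789 and 0.0456). With lane as a covariate neither passed (0.420 and 0.115), and the interaction of 24 against 3 hr also did not pass with the replicate block or without 1 of 9 of its 12 libraries (up to 0.144). WNK1-deficient libraries had 375 to 711, 294 to 637 and 100 to 225 normalized counts at 0, 3 and 24 hr, and control libraries 48.0 to 76.0, 28.5 to 435 and 477 to 1084.

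H2-K1 in WNK1-deficient libraries at 0 hr had 1 value, 53802 in replicate 2, further from the other 3 (56787 to 57145) than chance usually gives. The gap was 0.893 of the range of the 4 values. Chance does this in about 1 group in 20, and 14 groups (the 10 genes and 4 sums) were looked at.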

How the results depend on the processing

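Of 33 calls of single genes over the 16 comparisons, none turned its direction in any of the 39 settings. All 33 were kept with pseudocounts of 0.5 and 5, a mean of at least 100 and upper-quartile scaling, 32 with quantile scaling, total scaling and DESeq2, 29 without the 3 libraries that stand apart, 28 with no trend and edgeR, 25 with no filter, 21 with only the groups compared and 18 with lane as a covariate. Libraries of lanes 3 and 4 come from 3 and 24 hr except 1 of 48 hr, so that covariate rests on little overlap.

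Genes called higher without WNK1 (main counts 4, 5, 5 and 0 at 0, 3, 24 and 48 hr) numbered 1 with only the groups compared, 1 with lane and 3 with edgeR at 3 hr, and 2 with only the groups compared and 2 without the 3 libraries at 24 hr. Genes called lower at 24 hr numbered 0 with no filter, no trend, replicate block and lane. Over all 14141 genes tested, 813 were called higher at 3 hr in the main fit. With only the groups compared this was 170, with lane 716 and with edgeR 795. At 24 hr it was 994 in the main fit, 528 with only the groups compared and 852 without the 3 libraries. Called lower at 24 hr were 771 in the main fit, 726 with no trend, 632 with replicate block and 996 with lane. No filter gave 633 of 27571. Counts that follow are again of the 10 genes, without counts over all genes. With only the groups compared, the changed genes were 1 and 0 in controls at 24 against 0 and 3 hr, 5, 3, 3 and 7 without WNK1 at 3, 24 and 48 against 0 hr and 24 against 3 hr, and 1 and 0 in the interactions of 48 against 0 and 24 against 3 hr. With lane they were 0 and 4 in controls at 24 and 48 against 0 hr, 1, 2 and 7 without WNK1 at 3 and 48 against 0 hr and 24 against 3 hr, and 0 in both interactions of 24 hr. Quantile scaling gave 1 in controls at 48 hr and 2, 3 and 2 without WNK1 at 24 and 48 against 0 hr and 24 against 3 hr, and upper-quartile scaling 2 and 2 in the last 2 of these. No filter and no trend gave 0 without WNK1 at 24 hr and in the interaction of 24 against 3 hr, no filter 0 at 48 hr, and total scaling and edgeR 0 in that interaction. DESeq2 gave 2 without WNK1 at 48 hr and 1 in the interaction of 48 against 0 hr. Without the 3 libraries 5 genes changed between 24 and 3 hr in each genotype and 1 in the interaction of 48 against 0 hr. The cause was not tested. The sum of the H2-Q genes at 3 hr kept its log2 fold change of 1.10 with only the groups compared but not its call (adjusted p = 0.0686).

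Leaving out 1 library at a time gave 2 to 3, 0 to 4, 2 to 6 and 0 to 1 genes higher at 0, 3, 24 and 48 hr and 0 lower at 24 hr. Over all 14141 genes it gave 878 to 1481, 479 to 865, 518 to 1133 and 495 to 960 higher at these times. At 24 hr 370 to 833 of all genes were lower. Among the 10 genes, against 0 hr, it gave 2 to 4 changed at 24 hr and 1 to 2 at 48 hr in controls. Without WNK1 it gave 1 to 3, 0 to 1 and 0 to 1 at 3, 24 and 48 hr. For 24 against 3 hr it gave 2 to 5 in controls, 0 to 2 without WNK1 and 0 to 1 in the interaction. The log2 fold change of the H2-Q sum ran from 1.03 to 1.23, 0.85 to 1.25, 1.11 to 1.51 and 0.07 to 0.56 at 0, 3, 24 and 48 hr.

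Same-numbered mice did not deviate together (r from -0.197 to 0.205 over 12 pairs, 2 over 0.1), so the numbers pair nothing. The replicate block kept 25 of 33 calls, leaving 0 genes without WNK1 at 24 and 48 hr against 0 hr and 0 in the interaction of 24 against 3 hr. In this fit replicate 4 at 0 hr, the only library of its number, has no weight. Counting noise is small at these depths, and the 3 or 4 mice per group limit the precision.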

Other observations

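H2-T10, a nonclassical gene that shares 17.8% of the windows of H2-T22, varied widely between mice of the same group. At 24 hr it had 932, 3416 and 3379 normalized counts in WNK1-deficient libraries and 973, 2968 and 3699 in controls, and at 48 hr 971, 1159 and 748 without WNK1 and 2891, 2740 and 1520 in controls. At 3 hr the values were 2755, 735 and 2717 without WNK1 and 484, 646 and 996 in controls. It was chosen after its values were seen, and whether the mice differed in MHC alleles was not tested.

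Control replicate 3 at 48 hr had 8961 normalized counts of H2-Q6, 1279 of H2-Q5, 10080 of Nlrc5 and 16896 of Wnk1. WNK1-deficient libraries of that time had 7279 to 9265 of H2-Q6, 636 to 1159 of H2-Q5, 3985 to 6866 of Nlrc5 and 5142 to 9046 of Wnk1. The other controls had 2674 and 2278 of H2-Q6, 361 and 253 of H2-Q5, 5292 and 4829 of Nlrc5 and 12093 and 10506 of Wnk1.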
